A study of Mus musculus with 6 samples.

Results

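Keratins are the intermediate filament proteins of epithelial cells. Every keratin filament is built from pairs of 1 acidic type I and 1 basic type II protein. Simple, single-layered epithelia such as the kidney tubule are known for KRT8 and KRT18, together with KRT7 and KRT19. Stratified epithelia use other pairs, such as KRT5 with KRT14 in basal layers and KRT1 with KRT10 in upper layers, and further keratins build hair and its inner root sheath. Keratins of stratified epithelia such as KRT17 and KRT6A are also known from injured or squamous cells.

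The keratins were taken from the deposited table as all genes whose symbol is KRT followed by a number and, in a few cases, the letter A, B or C. This rule uses names only and found 40 of the 39234 genes, of which 24 are type I and 16 type II. By the positions in the table, 17 of them lie on chromosome 12 and 23 on chromosome 17, which are the 2 keratin gene clusters of the human genome. KRT18 is the type I gene that lies in the chromosome 12 cluster, next to its partner KRT8. A further 15 keratins of the list by which classes were assigned, among them KRT6A, KRT24 and KRT75, had no row in the table and were not analysed here.

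RNA was sequenced from 6 samples of HK-2, an established cell line of human proximal tubule cells. Of these, 3 were controls and 3 overexpressed USAG-1 (USAG1_OE in the sample names). All 6 carry the genotype label WT, and the study's methods state that overexpression in cells was done by transient transfection of plasmids. The labels do not say whether control cells received an empty plasmid, nor that samples came from separate cultures, so p-values measure only the spread between these samples. The organism label reads mouse, but the line is human and so are the Ensembl identifiers.

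Libraries held 41236194 to 48699471 counts on genes, at which 3 counts, the level that a count of 0 allows, are 0.0608 to 0.0719 CPM, which are counts scaled to a common library total with TMM factors. Such limits cover counting error only. SOSTDC1, the gene of USAG-1, had 60 to 80 counts in the control libraries and 3907 to 5072 in the USAG-1-overexpressing ones. Control replicate 3 stood apart from the other control libraries, with a chi-square per degree of freedom of 47.2 and 48.2 against them, where all other pairs within a group were between 6.79 and 8.73. Of 15 markers of proximal tubule and epithelium, LRP2 had no count, and AQP1, CUBN, HNF4A and CDH1 did not reach the counts needed for testing. The summed list was 896 to 950.1 CPM in control and 1023 to 1050.3 CPM in USAG-1-overexpressing libraries, with PAX8, CDH2 and GGT1 higher and CDH6 lower. Transcripts of T and NK cells were summed to 80.8 to 103 CPM in control and 12.96 to 13.62 CPM in USAG-1-overexpressing libraries, with 11 of 12 genes of that list lower. Mitochondrially encoded genes took 4.80% to 5.59% of counts in control and 1.50% to 1.55% in USAG-1-overexpressing libraries. Summed markers of fibroblasts were 43.6 to 45.6 CPM in control and 58.5 to 61.9 CPM with overexpression, with LUM as the 1 gene of 4 tested that rose and COL1A2 at 0. These 4 sets differed between the groups beside every keratin change given here, and their part in these changes was not tested. In such bulk libraries, fewer cells of a type and less RNA per cell cannot be told apart. Each library's values below are given in the order of replicates 1, 2 and 3.

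HK-2 cells showed the keratin set of a simple epithelium together with KRT80. KRT8, KRT18, KRT80, KRT19 and KRT7 held 98.4% to 98.6% of all keratin counts in control libraries and 98.8% to 98.9% in USAG-1-overexpressing ones. KRT10, KRT15 and KRT34 were the other keratins with at least 1 CPM on average. Of the 40 keratins, 10 had no count in any of the 6 libraries, including KRT1, KRT16, KRT17 and KRT6B, and 15 more had some counts but too few to be tested, with at most 26 in 1 library. This left 15 keratins with enough counts for a test. Counts were not corrected for transcript length, so no order of levels is drawn between genes.

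With USAG-1 overexpression KRT80 rose, whereas KRT34 and KRT79 fell. These were the 3 of 15 keratins whose adjusted p was under 0.05, where the adjustment (Benjamini-Hochberg) ran over the 18188 genes tested by the quasi-likelihood method of edgeR. Over all genes tested 15.9% were called, 8.95% higher and 6.91% lower, so 3 of 15 keratins is close to the background and is no particular feature of the family. At an unadjusted p under 0.05 there were 6 keratins. The groups did not overlap for 4 of the 15, where 37.6% of all genes tested did not overlap. The median log2 fold change was -0.09 for the 15 keratins and -0.02 for all genes tested. It differed with the level of the keratins, as given below. Standard errors (SE) of the log2 fold change ranged from 0.08 for KRT80 to 1.14 for KRT23, whose counts were few.

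**Figure D1:**
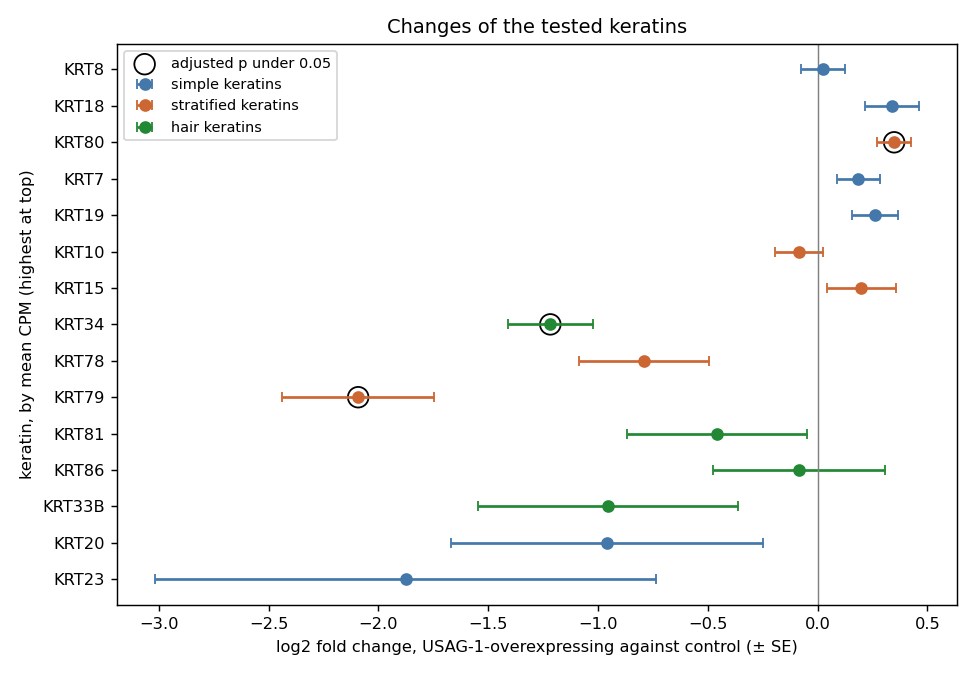
Log2 fold change in USAG-1-overexpressing against control cells (x axis, ± standard error) for the 15 keratins tested, ordered by mean CPM on the y axis. Points are coloured by class (simple, stratified or hair keratins) and a ring marks an adjusted p under 0.05. KRT80 lies to the right of 0 at 0.35, and KRT34 and KRT79 lie to the left at -1.22 and -2.09.

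KRT8 (ENSG00000170421; hg38 chromosome 12, 52897187 to 52949954) encodes the type II keratin of simple epithelia. Its level was 995, 971 and 1277 CPM in control libraries and 1073, 1125 and 1102 CPM in USAG-1-overexpressing libraries. Control replicate 3 was above all other libraries, the other control libraries were below them, and the groups overlapped. The means were 1081 ± 170.2 and 1100.0 ± 26.2 CPM (SD, n = 3 each), and the log2 fold change of 0.03 (SE 0.10) was not significant (edgeR adjusted p = 0.897).

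KRT18 (ENSG00000111057; hg38 chromosome 12, 52948871 to 52952900), the type I partner of KRT8, had 282, 294 and 396 CPM in control libraries and 389, 429 and 412 CPM in USAG-1-overexpressing libraries. Control replicates 1 and 2 were below every USAG-1-overexpressing library, while control replicate 3 lay among them. The means were 324 ± 62.9 and 410.0 ± 19.9 CPM (SD, n = 3 each). Its log2 fold change was 0.34 (SE 0.12), which did not pass the threshold (edgeR adjusted p = 0.102), although DESeq2's Wald test called it (adjusted p = 0.0198). The 2 genes overlap by 1084 bases on opposite strands. The protocol marks the strand, but whether the counting used it is not given in the sources used here, so reads of the shared stretch could have gone to either gene. Both genes also have many pseudogenes with near-identical sequence. Pseudogenes of KRT8 held 2.37% ± 0.0508 of the count of KRT8 in control and 2.20% ± 0.331 with overexpression (SD, n = 3 each), and those of KRT18 held 0.711% ± 0.206 and 0.499% ± 0.125 of the count of KRT18.

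KRT7 and KRT19, a type II and a type I keratin of ductal and other simple epithelia, followed a like pattern over the libraries. KRT7 (ENSG00000135480; hg38 chromosome 12, 52232520 to 52248921) had 65.7, 74.6 and 86.9 CPM in control and 84.3, 86.5 and 87.5 CPM in USAG-1-overexpressing libraries. KRT19 (ENSG00000171345; hg38 chromosome 17, 41523617 to 41528308) had 67.8, 62.4 and 83.7 CPM in control and 82.6, 86.6 and 87.2 CPM in USAG-1-overexpressing libraries. For both genes control replicate 3 lay within the range of the USAG-1-overexpressing libraries and the other control libraries lay below it. The log2 fold changes were 0.19 (SE 0.10, adjusted p = 0.243) for KRT7 and 0.26 (SE 0.10, adjusted p = 0.132) for KRT19 by edgeR, neither of them significant.

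KRT20 and KRT23, the remaining type I keratins listed with simple epithelia, are known from gut and other gland epithelia and were barely counted. KRT20 had 19, 6 and 23 counts in control and 8, 4 and 13 in USAG-1-overexpressing libraries, which overlap. KRT23 had 17, 16 and 20 counts in control libraries, and 0, 0 and 14 in USAG-1-overexpressing libraries. In KRT23 the USAG-1-overexpressing replicate 3 was close to the control libraries while the other 2 had no count. Its log2 fold change of -1.88 (SE 1.14) was not significant (edgeR adjusted p = 0.314). Without USAG-1-overexpressing replicate 3 that group held no count, so the gene entered the test through the control libraries alone. It was then called (edgeR adjusted p = 0.0337), but no direction is read from this call.

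**Figure D2:**
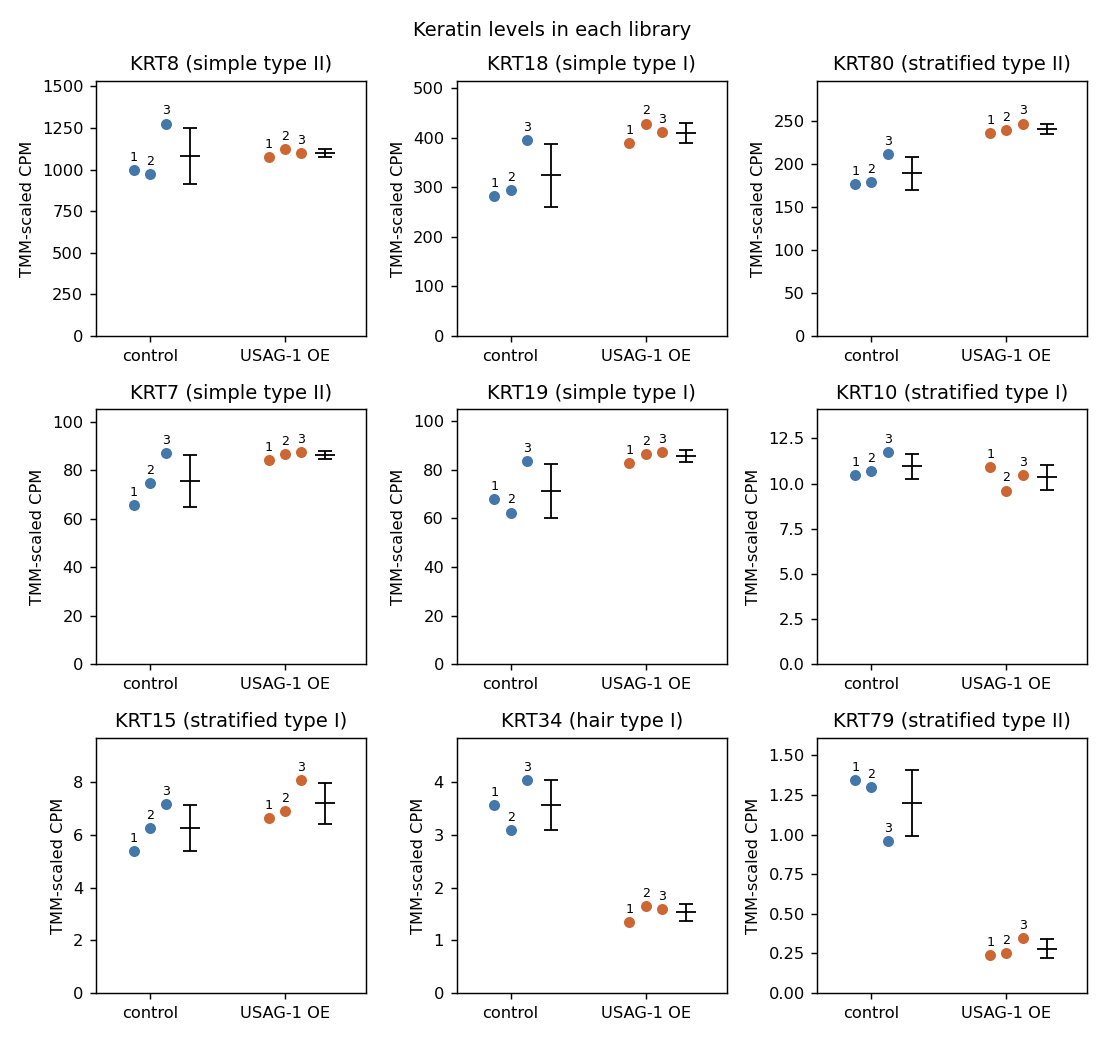
TMM-scaled CPM (y axis, linear from 0) of the 8 keratins with at least 1 CPM on average and of KRT79 in 3 control (blue) and 3 USAG-1-overexpressing (orange) libraries. Points are libraries with their replicate number, and the bar beside them is the mean with its SD. Control replicate 3 is the highest control library for KRT8, KRT18, KRT80, KRT7 and KRT19. For KRT80, KRT34 and KRT79 the groups do not overlap.

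The ratio of type II to type I counts needs no scaling between libraries. It was 3.35, 3.25 and 3.13 in control libraries and 2.84, 2.72 and 2.76 in USAG-1-overexpressing libraries. All 3 control libraries, replicate 3 included, were above all USAG-1-overexpressing ones. The mean fell from 3.24 ± 0.109 to 2.78 ± 0.0599 type II counts per type I count (SD, n = 3 each). An exact permutation test (two-sided) gave p = 0.1, the lowest possible with 3 libraries against 3, and 0.12 after Benjamini-Hochberg adjustment over 6 ratios.

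For KRT8 per KRT18 the ratio was 3.53, 3.30 and 3.22 in control libraries and 2.76, 2.62 and 2.67 in USAG-1-overexpressing libraries, a difference of -0.32 on the log2 scale. The groups did not overlap (p = 0.1, two-sided exact permutation test, adjusted 0.12). KRT8 per KRT19 was 14.7, 15.6 and 15.3 in control and 12.99, 12.99 and 12.64 in USAG-1-overexpressing libraries, again without overlap (p = 0.1, same exact permutation test). KRT7 per KRT18 was 0.233, 0.254 and 0.219 in control and 0.217, 0.202 and 0.212 with overexpression, with a narrow gap between the groups (p = 0.1, exact permutation test). KRT7 per KRT19 did not separate the groups, at 0.968 to 1.20 in control and 0.999 to 1.02 with overexpression (p = 0.6, exact permutation test). With KRT8 and KRT18 left out, the type II to type I ratio of all remaining keratins was higher in USAG-1-overexpressing cells, by 0.13 on the log2 scale. The type II keratins that remained included KRT80, with means of 189 CPM in control and 241 CPM with overexpression.

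**Figure D3:**
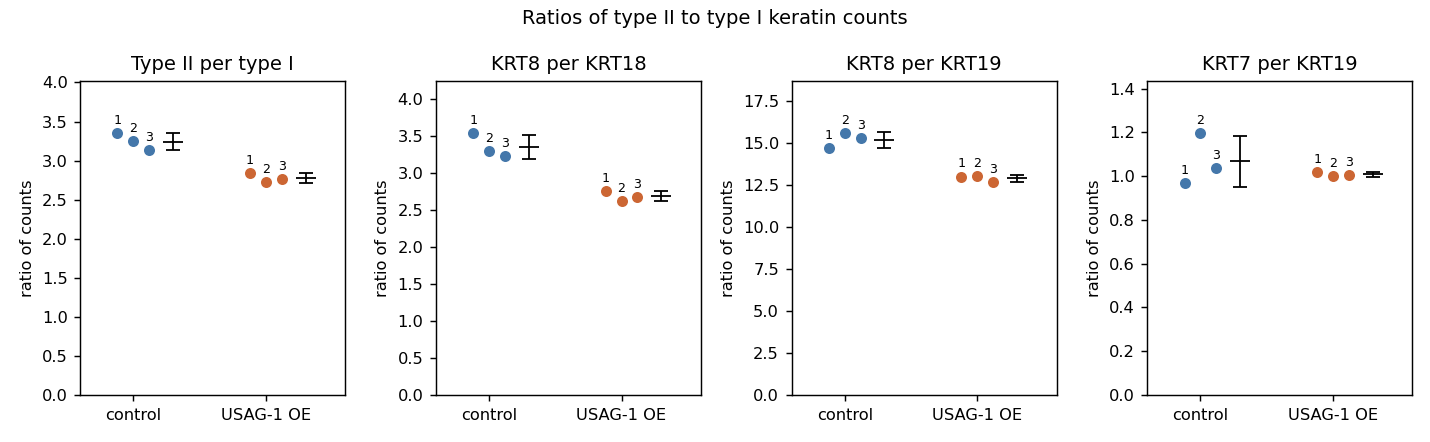
Ratios of counts within each library (y axis, linear from 0) for all type II against all type I keratins and for 3 type II to type I gene pairs, in 3 control (blue) and 3 USAG-1-overexpressing (orange) libraries. Points are libraries and the bar beside them is the mean with its SD. The KRT8 to KRT18 ratio lies between 3.22 and 3.53 in control and between 2.62 and 2.76 in USAG-1-overexpressing libraries, whereas the KRT7 to KRT19 ratios overlap.

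KRT80 (ENSG00000167767; hg38 chromosome 12, 52168996 to 52192014) encodes a type II keratin that is listed here with stratified epithelia and is also known from single-layered ones. It had 177, 179 and 212 CPM in control libraries and 236, 239 and 247 CPM in USAG-1-overexpressing libraries. Every USAG-1-overexpressing library was above every control library. The means were 189 ± 19.4 and 241 ± 5.68 CPM (SD, n = 3 each), with a log2 fold change of 0.35 (SE 0.08, edgeR adjusted p = 0.0199). KRT80 per KRT8 was 0.178, 0.185 and 0.166 in control and 0.220, 0.213 and 0.224 in USAG-1-overexpressing libraries, with no overlap (p = 0.1, two-sided exact permutation test). KRT80 lost significance with any 1 library other than control replicate 3 left out. Its log2 fold changes were then between 0.30 and 0.36, with edgeR adjusted p between 0.0645 and 0.0883. In these fits 1137 to 1917 genes were called in all, against 2884 with all 6 libraries.

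Among the other stratified keratins the classical pairs were near or at 0. KRT5 had no count in the control libraries and 4 in each USAG-1-overexpressing library, and KRT14 had 0, 4 and 4 counts in control and none with overexpression. KRT1, KRT2, KRT6B, KRT9, KRT16 and KRT17 had no count in any library, which allows up to the level of 3 counts. KRT10, the type I partner of KRT1 in upper epidermal layers, was measured without it, at 10.5, 10.7 and 11.7 CPM in control and 10.9, 9.62 and 10.5 CPM in USAG-1-overexpressing libraries. These levels overlap, and the log2 fold change was -0.08 (SE 0.11, edgeR adjusted p = 0.655). KRT10 overlaps the antisense gene KRT10-AS1, which had 379 to 525 counts. KRT15, a type I keratin of basal cells, had 5.39, 6.24 and 7.15 CPM in control and 6.62, 6.89 and 8.06 CPM in USAG-1-overexpressing libraries, which overlap (log2 fold change 0.20, SE 0.16).

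KRT79 (ENSG00000185640; hg38 chromosome 12, 52821408 to 52834311), a type II keratin known from the ducts of hair follicles and sebaceous glands, had 56, 64 and 41 counts in control libraries and 11, 11 and 15 counts in USAG-1-overexpressing libraries. Each control library was above each USAG-1-overexpressing one. The mean was 1.20 ± 0.208 CPM in control and 0.280 ± 0.0591 CPM with overexpression (SD, n = 3 each). Its log2 fold change was -2.09 (SE 0.35, edgeR adjusted p = 0.00615), which corresponds to a 4.26-fold lower level.

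The nearest keratin gene, KRT78 (ENSG00000170423), lies 3493 bases from KRT79 on the same strand and encodes another type II keratin. KRT78 had 47, 42 and 48 counts in control and 26, 28 and 25 in USAG-1-overexpressing libraries. The groups did not overlap, but the log2 fold change of -0.79 (SE 0.30) was not significant (edgeR adjusted p = 0.111). On the other side of KRT79, KRT4 and KRT3 had too few counts to be tested, with 13 and 38 counts summed over the control libraries and 4 and 14 summed over the USAG-1-overexpressing libraries.

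KRT34 (ENSG00000131737; hg38 chromosome 17, 41377669 to 41382306) encodes a type I keratin of the hair shaft. It had 149, 153 and 172 counts in control libraries and 62, 72 and 69 counts in USAG-1-overexpressing libraries, with a wide gap between the groups. The mean was 3.57 ± 0.466 CPM in control and 1.53 ± 0.160 CPM with overexpression (SD, n = 3 each). The log2 fold change was -1.22 (SE 0.19, edgeR adjusted p = 0.00539), a 2.33-fold lower level. The hair keratin total, to which KRT34 belongs, was 5.01 to 6.21 CPM in control and 2.53 to 3.39 CPM in USAG-1-overexpressing libraries. A two-sided exact permutation test gave p = 0.1, adjusted 0.35 over 7 sums. The mean totals were 5.73 and 3.02 CPM, beside 3.57 and 1.53 CPM for KRT34 alone, so the total is no separate result.

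Within 50000 bases of KRT34, the hair keratin KRT33B had 23, 18 and 15 counts in control and 17, 8 and 4 in USAG-1-overexpressing libraries, which overlap, and KRT33A and KRT37 had none. KRT33B, whose sequence is close to that of KRT33A, had a log2 fold change of -0.95 with a standard error of 0.59. The type II hair keratins KRT81 and KRT86 had 21 to 47 and 16 to 29 counts. They are close copies of each other and overlap by 5622 bases on opposite strands, so the split of their reads is uncertain. Neither was called, with log2 fold changes of -0.46 (SE 0.41) and -0.09 (SE 0.39). Of the untested hair keratins, KRT32 had 10, 14 and 9 counts in control and 0, 0 and 6 in USAG-1-overexpressing libraries. Summed over each group, control first, KRT31 had 8 and 0 counts and KRT85 had 4 and 4. KRT39 had 3 and 5, and KRT36 had 0 and 4, so these few counts shared no direction.

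By level, 1 of 7 keratins tested with a mean of at least 5 CPM was called, namely KRT80, and 2 of 8 below it, KRT34 and KRT79. Among all genes tested, 13.5% were called higher and 7.93% lower at or above 5 CPM, against 1.51% and 5.23% below it. The median log2 fold change of the keratins was 0.20 at or above 5 CPM and -0.96 below it. For all genes tested it was 0.02 and -0.17. KRT34 and KRT79 reached the level of the filter on low counts in all 3 libraries of both groups. KRT23 and KRT33B reached it in 3 control libraries and 1 USAG-1-overexpressing library, and KRT20 in 2 and 1. These genes entered the test mainly through the control group, so no direction is read from them or from the median below 5 CPM.

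By edgeR, KRT8, KRT18, KRT7 and KRT19 were called only in the fit without control replicate 3. KRT10 and KRT15 were called neither with nor without that library, and KRT80 was called in both fits. When control replicate 3 was left out, 7 keratins were called instead of 3, and 5 of them were higher. KRT18 then had a log2 fold change of 0.52 (edgeR adjusted p = 8.75e-05), KRT19 of 0.40 (adjusted p = 7.33e-04), KRT7 of 0.30 (adjusted p = 0.00549) and KRT8 of 0.17 (adjusted p = 0.00345). KRT80 had 0.44 (adjusted p = 7.31e-05). Without this library 5091 genes were called in all, against 2884 with it. KRT34 and KRT79 were called lower with each of the 6 libraries left out in turn.

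**Figure D4:**
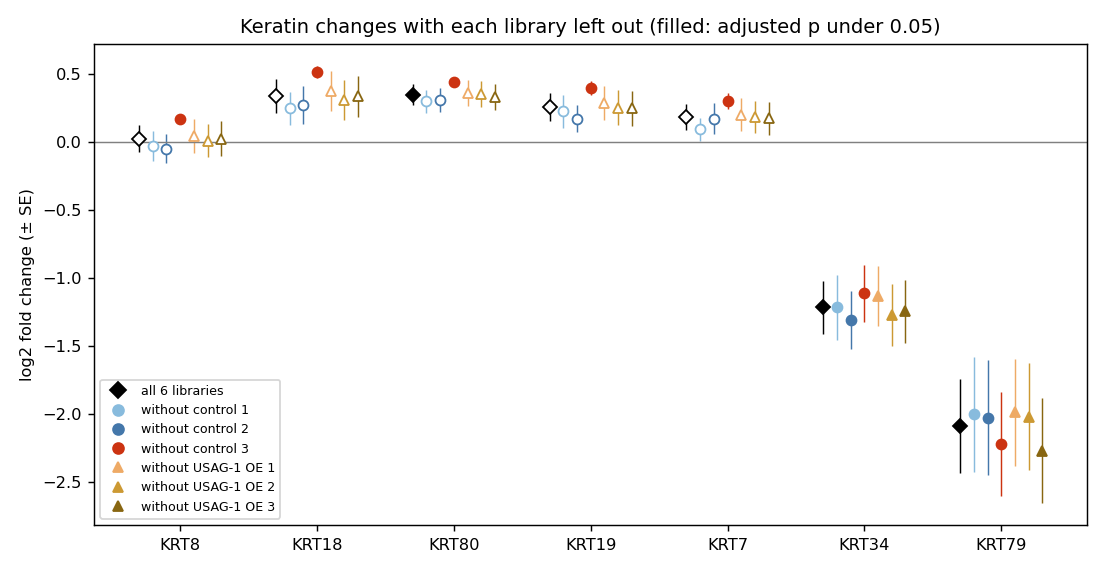
Log2 fold change with its standard error (y axis) of 7 keratins with all 6 libraries and with each library left out in turn. Filled symbols mark an adjusted p under 0.05. The value without control replicate 3 (red) is the highest for KRT8, KRT18, KRT80, KRT19 and KRT7, and KRT34 and KRT79 stay between -1.31 and -1.11 and between -2.27 and -1.99.

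Summed over the family, keratins took 0.163%, 0.163% and 0.199% of the counts in control libraries and 0.191%, 0.198% and 0.198% in USAG-1-overexpressing libraries. The groups overlapped through control replicate 3. On the CPM scale, simple keratins summed to 1553 ± 253 CPM in control and 1682 ± 49.6 CPM with overexpression (SD, n = 3 each; p = 0.4, two-sided exact permutation test). Stratified keratins summed to 209 ± 20.7 and 260 ± 6.49 CPM, without overlap (p = 0.1, exact permutation test, adjusted 0.35 over 7 sums). That sum was mostly KRT80. Without KRT80 it was 20.1 ± 1.38 CPM in control and 18.7 ± 1.03 CPM with overexpression (p = 0.2, exact permutation test). Among keratinocyte markers outside the keratins, DSG3, SERPINB5 and LGALS7 had no count, and DSC3 and COL17A1 were tested and not called. DSG1, LY6D and CALML3 of that list were not among the deposited genes. The summed markers were 7.01 to 9.77 CPM in control and 8.91 to 10.6 CPM with overexpression.

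Keratin filaments are tied to junctions and to other filaments by linker proteins. Of 12 linker genes tested, 6 were higher and 1 was lower in USAG-1-overexpressing cells, beside 8.95% higher and 6.91% lower over all genes tested. All of the 12 except PPL and EPPK1 had a mean of at least 5 CPM. At that level 13.5% of all genes tested were higher and 7.93% lower. The median log2 fold change of the 12 linkers was 0.29, beside -0.02 for all genes. EVPL, envoplakin, rose from 38.3 ± 3.97 to 53.2 ± 1.72 CPM (SD, n = 3 each; log2 fold change 0.47, edgeR adjusted p = 0.00856). PPL, PKP2, JUP and TCHP also rose, as did MACF1, whose place among keratin linkers rests only on the list used here. PLEC, plectin, which links keratins to hemidesmosomes and to actin, fell from 1209 ± 18.7 to 1018 ± 10.3 CPM (log2 fold change -0.25, edgeR adjusted p = 0.00979). DSP, the desmosomal anchor of keratins, was not called, at 166 ± 20.3 and 177 ± 5.04 CPM. Without USAG-1-overexpressing replicate 2 none of the 12 linkers was called by edgeR, and over all genes 1137 were called, against 2884 with all libraries. EVPL (0.45, edgeR adjusted p = 0.0526) and PLEC (-0.25, adjusted p = 0.0515) kept log2 fold changes close to those with all libraries.

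Of 12 other intermediate filament genes tested, 2 were higher and 3 lower, beside 8.95% and 6.91% of all genes tested. Among tested genes of at least 5 CPM these shares were 13.5% and 7.93%. INA, a neuronal filament protein, rose from 81.8 ± 2.90 to 111 ± 4.41 CPM (SD, n = 3 each; log2 fold change 0.43, edgeR adjusted p = 0.00303), and NEFH also rose. LMNB1, lamin B1 of the nuclear envelope, fell from 205 ± 6.06 to 165 ± 5.62 CPM (log2 fold change -0.32, edgeR adjusted p = 0.00789), and NES and SYNC also fell. VIM, vimentin, the filament protein of mesenchymal and cultured cells, was not called, with 1961 ± 240.0 CPM in control and 1954 ± 58.5 CPM with overexpression.

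Of 6 transcription factors of epithelial genes that were tested, 3 were higher and none was lower, beside 8.95% and 6.91% of all genes tested and 13.5% higher among genes of at least 5 CPM. ELF3 rose from 80.3 ± 2.09 to 111 ± 7.43 CPM (SD, n = 3 each; log2 fold change 0.46, adjusted p = 0.00347) and KLF4 from 11.95 ± 0.865 to 16.2 ± 0.471 CPM (log2 fold change 0.44, adjusted p = 0.0193, both by edgeR). KLF5 also rose. TP63, the regulator of stratified epithelia, had too few counts to be tested, and GRHL3 and OVOL1 had none. GRHL2, also listed, was not among the deposited genes. Leaving out any library other than control replicate 3 left ELF3 as the 1 factor called. KLF4 then had log2 fold changes of 0.38 to 0.46 with edgeR adjusted p of 0.0543 to 0.0845. Over all genes 1137 to 1917 were called in these fits, against 2884 with all libraries. Of 20 genes listed for the cornified envelope or its neighbourhood, 9 were among the deposited genes. IVL, LORICRIN, CRNN, TGM3 and all listed SPRR genes were not, so nothing is known of them here. Of the 6 genes tested, none was called by edgeR, DESeq2 or limma-voom, and none had an unadjusted p under 0.05. SFN, at 44.1 ± 6.41 and 36.3 ± 4.53 CPM, and SCEL, at 1.80 ± 0.406 and 2.45 ± 0.332 CPM, had the smallest p.

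**Figure D5:**
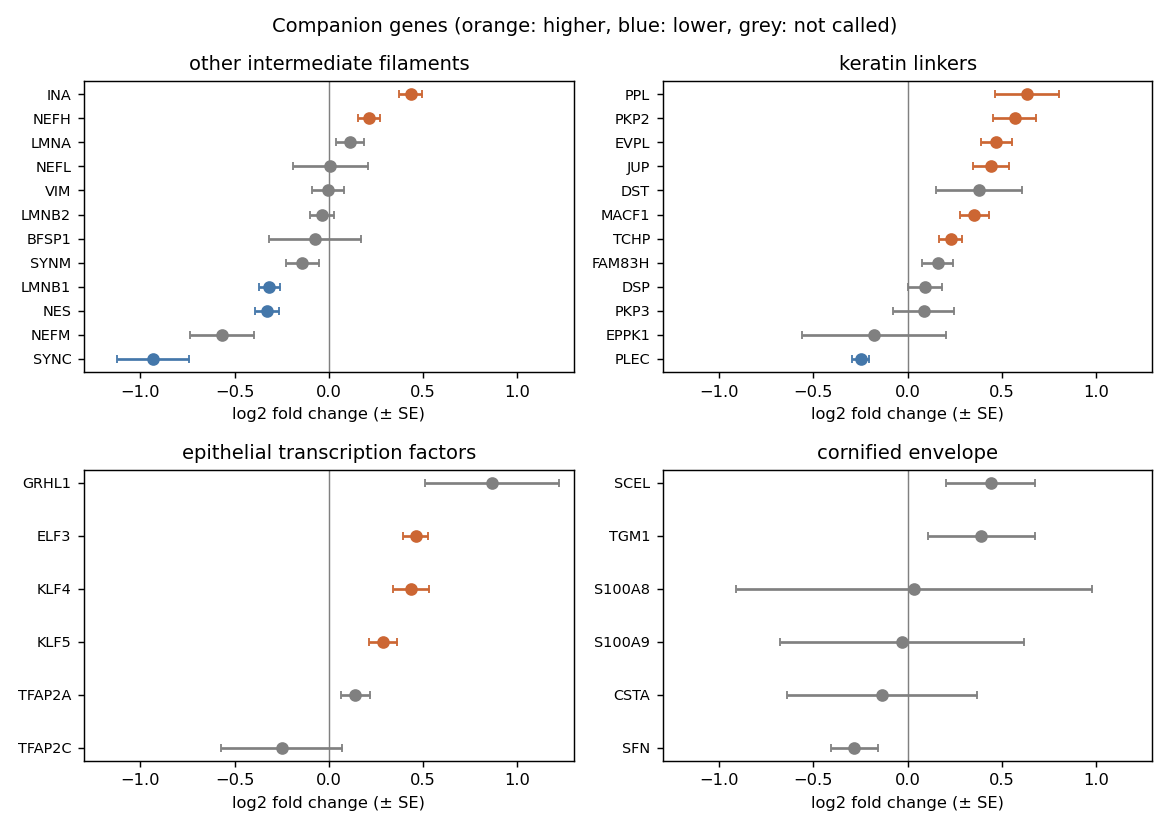
Log2 fold change (x axis, ± standard error) of the tested genes of 4 lists, other intermediate filaments, keratin linkers, epithelial transcription factors and cornified envelope genes, 1 gene per line on the y axis. Orange and blue points were higher and lower at an adjusted p under 0.05, and grey points were not called. Of the 12 linkers 6 are orange and PLEC is blue, and all 6 cornified envelope genes are grey.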

How the data were processed

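The authors deposited 1 table of whole-number counts per gene, not normalized, for 6 libraries, with hg38 positions. Its name speaks of FPKM, but its columns are named counts. The submitters' processing notes name cutadapt 1.9 and FastQC. The aligner, counter and annotation are not given in the sources used here.

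After filterByExpr and TMM, the quasi-likelihood test of edgeR compared both groups over 18188 genes with no replicate block, and calls had an adjusted p under 0.05 (Benjamini-Hochberg) at any fold change. Summed levels and ratios took exact permutation tests. Alternatives were other scalings, filters and tools (DESeq2, limma-voom), a replicate block and each library left out. SE is |log2 fold change| / √F. The code was tested on simulated data. Software was R 4.3.3, edgeR 4.0.16, limma 3.58.1 and DESeq2 1.42.0.

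Keratin classes, marker lists and companion lists were typed from general knowledge, and the members and lists were chosen with earlier results of these data known. Every tested keratin is named, with values for each library at a mean of at least 1 CPM. From each companion list the 2 genes with the smallest p were chosen for full values, and other genes were named after their values were seen. The reference genome given was mouse, so no sequence or transcript length was used.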

Additional observations from a re-analysis of the deposited data

How the results depend on the processing

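KRT34 and KRT79 stayed lower and past the threshold under all 15 alternatives, among them other scalings, DESeq2, limma-voom, no filter on low counts, mitochondrially encoded genes left out and pseudogene reads added to their parent keratins. With 1 library left out, the number of keratins called ranged from 2 to 7 (3 with all), higher ones from 0 to 5 (1 with all) and companion genes from 3 to 20 (15 with all). The 3 companion genes were found without USAG-1-overexpressing replicate 2 and the 20 without control replicate 3. Over all genes, 1137 and 5091 were called in these fits, in that order, against 2884 with all libraries. DESeq2's Wald test called 2 keratins higher, KRT80 and KRT18. The log2 fold change of KRT8 ranged from -0.047 to 0.17 and that of KRT86 from -0.29 to 0.15 over the libraries left out. KRT8 changed sign to -0.03 without control replicate 1 and -0.047 without control replicate 2, and KRT86 to 0.03 without control replicate 1 and 0.15 without USAG-1-overexpressing replicate 1. The type II to type I ratio changed sign to 0.13 with KRT8 and KRT18 left out. The cause of these changes was not tested.

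Deviations from the group means correlated at 0.07, -0.05 and 0.04 between libraries of the same replicate number. Between libraries of different numbers the values ran from -0.14 to 0.11. No pairing by number was seen, but these values cannot tell how the samples were handled. With a replicate block 3 keratins, 12 companion genes and 2381 genes in all were called. The mean difference in the KRT8 to KRT18 ratio, -0.32 on the log2 scale, is the same with and without the block by arithmetic. Counts near 3 per library limit what can be said of the 25 untested keratins.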
